A study of Mus musculus with 10 samples.

Results

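The 10 genes described here encode parts of the neuronal cytoskeleton: the stathmins Stmn2, Stmn3 and Stmn4, the beta-tubulin Tubb3, the microtubule-binding protein gene Dcx, the growth cone protein gene Gap43, and the intermediate filament genes Prph, Nefl, Nefm and Ina. They were chosen by name, and all 10 were found among 49671 listed genes and were among the 14528 with enough counts to be tested. Their RNA was measured in GFP-positive cells sorted from single mouse embryos at embryonic day 10.5, with 1 library of polyadenylated RNA per embryo. In 5 embryos, named p53_activated, Wnt1Cre had switched on a stabilised p53 from 1 Trp53 LSL-25,26 allele, with the other allele wild type. The 5 controls were Trp53+/+ littermates. Both groups carried Wnt1Cre and the R26mTmG reporter, which switches to green fluorescence after recombination, on a mixed 129/Sv and C57BL/6 background. Wnt1Cre acts in the dorsal neural tube and its descendants, so sorted cells can include central nervous system cells beside neural crest.

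Microtubules of growing axons are built from tubulins, among them the neuron-specific isotype encoded by Tubb3. Stathmins bind tubulin dimers and promote microtubule turnover, whereas doublecortin, the product of Dcx, binds and stabilises microtubules in young neurons. Neurofilaments and their relatives alpha-internexin and peripherin form the intermediate filaments of axons, replacing the vimentin and nestin filaments of progenitors. Neural crest gives rise to sensory, sympathetic and enteric neurons, and these genes are commonly read as signs of neuronal differentiation.

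Library totals ran from 14644162 to 28379562 counts in p53_activated embryos and from 12368058 to 23514828 in control embryos. Cdkn1a, the p53 target behind p21, averaged 105 ± 11.9 CPM (counts scaled to library size, as described with the processing) in p53_activated and 7.93 ± 1.59 CPM in control libraries (SD, n = 5 each). Trp53 itself, which both groups transcribe, averaged 29.1 ± 2.99 CPM in p53_activated and 18.2 ± 5.12 CPM in control libraries. No pair of libraries of the same group agreed within sampling noise. The log2 ratio of the embryonic globins Hbb-y to Hbb-bh1 was 2.31 and 1.43 in control replicates 1 and 2, against 0.66 to 1.05 in the other 8 libraries. In p53_activated replicate 4, the deepest library, the median gene with over 5000 exon bases lay 0.16 above its mean over all libraries on the log2 scale, and the median gene with under 2000 bases lay 0.18 below. Calls on the members and named relatives that changed without control replicates 1 and 2, or without p53_activated replicate 4, are given both ways.

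All 10 members had lower mean levels in p53_activated embryos, with a median log2 fold change of -0.77 against -0.01 over all tested genes. By edgeR's quasi-likelihood test 7 of the 10 fell and 0 rose at an adjusted p under 0.05, where 2.74% of all tested genes were called lower, 4.49% higher and 7.23% in either direction. The 7 were Stmn2, Stmn3, Stmn4, Tubb3, Dcx, Nefl and Nefm. Gap43, Prph and Ina did not pass. For 7 members, with Prph in place of Dcx, every p53_activated embryo lay below every control embryo, as was the case for 3.52% of all tested genes, and for 0 members every p53_activated embryo lay above, the case for 4.54%. At an unadjusted p under 0.05 edgeR had all 10 members lower and 0 higher. The share of all tested genes lower at that unadjusted threshold is not given. This count, and the unadjusted counts of other lists below, therefore stand without a background. DESeq2 run on the same counts called 9 members lower, all but Gap43, and 0 higher, with 3.99% of its tested genes lower. The summed level of the members was 488 to 712 CPM in p53_activated and 817 to 1101 CPM in control libraries. In these bulk samples fewer neurons and less RNA per neuron cannot be told apart.

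**Figure D1:**
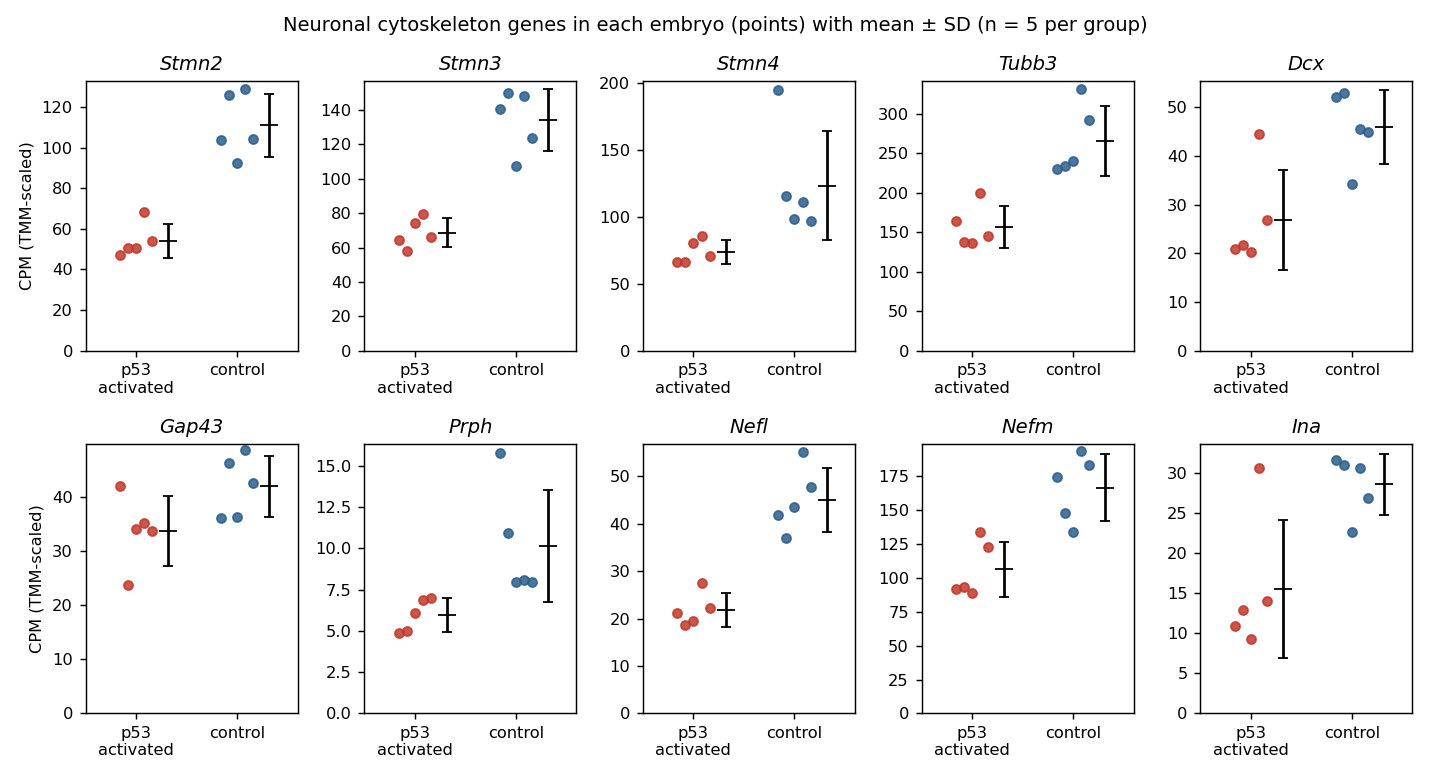
CPM of each of the 10 genes in single embryos (points), p53_activated left and control right, with mean ± SD beside them (n = 5 each). Groups stand apart in 7 panels and overlap for Dcx, Gap43 and Ina, where in Dcx and Ina the overlap comes from a single high p53_activated embryo.

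Among the stathmins, Stmn2, a microtubule regulator of growing axons also known as SCG10, had the largest fall. Its level was 47.1, 50.8, 50.4, 68.5 and 54.2 CPM in p53_activated replicates 1 to 5, against 104, 126, 92.3, 129 and 104 CPM in control replicates 1 to 5. Each p53_activated embryo was below the lowest control embryo. The log2 fold change was -1.03 ± 0.12 (SE; adjusted p = 4.65e-05), or 49.0% of the control level, with a 95% interval of -1.28 to -0.78. Stmn2 (ENSMUSG00000027500) lies on the plus strand of chromosome 3 from 8509360 to 8561606 on GRCm38. Stmn3, which encodes a membrane-attached stathmin of neurons, was at 64.6, 58.1, 74.2, 79.7 and 66.3 CPM in p53_activated replicates 1 to 5 and at 141, 150, 107, 148 and 124 CPM in control replicates 1 to 5. The groups again did not overlap, with a log2 fold change of -0.97 ± 0.11 (adjusted p = 4.16e-05). Stmn3 (ENSMUSG00000027581) lies on the minus strand of chromosome 2 from 181306459 to 181314500.

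Stmn4, the remaining neuronal stathmin (ENSMUSG00000022044, chromosome 14, plus strand, 66344296 to 66361680), fell less evenly. It was at 66.2, 65.9, 80.8, 86.0 and 70.8 CPM in p53_activated replicates 1 to 5. In control replicates 1 to 5 it was at 195, 115, 98.3, 111 and 96.7 CPM. Control replicate 1 stood well above the other controls, and the lowest control was above the highest p53_activated embryo. The log2 fold change was -0.74 ± 0.18 (edgeR adjusted p = 0.0246), and it was -0.51 (adjusted p = 0.00579) without control replicate 1. Without p53_activated replicate 1, 2 or 5 the fold changes were -0.70, -0.70 and -0.71, about as large, at edgeR adjusted p of 0.0519, 0.0581 and 0.0589.

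Stmn1, the widely expressed stathmin of dividing and differentiating cells, was far more abundant and fell by a smaller factor. It averaged 1759 ± 185 CPM in p53_activated and 2336 ± 312 CPM in control libraries (SD, n = 5 each). This was a change of -0.41 ± 0.10 on the log2 scale (edgeR adjusted p = 0.0244), and the groups overlapped. Without control replicates 1 and 2 it was -0.32 ± 0.11 (adjusted p = 0.121). Within a library, the log2 count ratio of Stmn2 to Stmn1 averaged -5.03 ± 0.21 in p53_activated and -4.40 ± 0.23 in control embryos, and the ranges of the groups did not overlap. The difference of -0.63 gave p = 0.00794 in a two-sided exact permutation test of 5 against 5 embryos, the smallest p it allows (0.0119 adjusted over 3 ratios). The ratio of Stmn3 to Stmn1 differed by -0.56 (exact permutation p = 0.00794, adjusted 0.0119), also without overlap. For Stmn4 to Stmn1 the difference was -0.29 (exact permutation p = 0.0317, adjusted 0.0317), and it missed the threshold when any 1 of 5 libraries was left out. Without control replicate 1 it was -0.16 (adjusted exact permutation p = 0.0635), and without p53_activated replicate 1, 2, 3 or 5 it was -0.29 to -0.27 (adjusted exact permutation p of 0.0635 to 0.0952).

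Tubb3, whose beta-III tubulin is the standard label of new neurons, was the most abundant member. It was at 164, 137, 136, 200 and 145 CPM in p53_activated replicates 1 to 5, against 231, 234, 240, 332 and 292 CPM in control replicates 1 to 5. The highest p53_activated embryo, replicate 4, lay below the lowest control. The log2 fold change was -0.77 ± 0.13 (edgeR adjusted p = 0.00158), or 58.8% of the control level. The gene Tubb3 (ENSMUSG00000062380) lies on the plus strand of chromosome 8 from 123411424 to 123422015.

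Other beta-tubulin genes did not all move with Tubb3. Tubb4a (-0.95 ± 0.22, edgeR adjusted p = 0.0177), Tubb2a (-0.59 ± 0.13, 0.0133) and Tubb2b (-0.48 ± 0.09, 0.00325), which are abundant in neural tissue, fell. Without control replicates 1 and 2, Tubb4a was at -0.60 ± 0.19 (adjusted p = 0.101). Tubb5 (-0.10 ± 0.10) and Tubb4b (0.29 ± 0.12), which most cell types express, did not pass. Tubb6 rose, with 80.2 ± 9.80 CPM in p53_activated and 31.0 ± 8.47 CPM in control libraries (SD, n = 5 each), a change of 1.37 ± 0.16 on the log2 scale (adjusted p = 4.88e-05). Coding sequences of tubulin genes are alike, so counts of single isotypes are uncertain where reads matched several.

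Dcx (ENSMUSG00000031285, X chromosome, minus strand, 143855842 to 143933311) was at 20.9, 21.6, 20.2, 44.6 and 26.8 CPM in p53_activated replicates 1 to 5. In control replicates 1 to 5 it was at 52.1, 53.01, 34.1, 45.6 and 44.9 CPM. Of the p53_activated embryos only replicate 4 reached the control range. The log2 fold change was -0.77 ± 0.21 (edgeR adjusted p = 0.0402), and -1.03 ± 0.14 (adjusted p = 0.000398) without p53_activated replicate 4. Without control replicates 1 and 2 it was -0.62 ± 0.25 (adjusted p = 0.200). The call was lost without each single library other than p53_activated replicate 4 and control replicate 3, with adjusted p up to 0.101 and log2 fold changes of -0.78 to -0.67.

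Microtubule-associated relatives of Dcx were uneven. Mapt, which encodes tau, fell (log2 fold change -1.40 ± 0.34, edgeR adjusted p = 0.0308), although its groups overlapped. Control replicates 1 and 2 had 59.1 and 55.5 CPM of Mapt and the other controls 17.4 to 32.9 CPM, and without those 2 libraries Mapt was at -0.81 ± 0.25 (adjusted p = 0.0928). Map2 (-0.14 ± 0.27), Map1a (0.10 ± 0.19), Map1b (0.37 ± 0.26), Dclk1 (-0.32 ± 0.15) and Dclk2 (0.14 ± 0.19) did not pass. In the whole list of 20 neuronal microtubule genes 9 fell and 0 rose, with a median of -0.28, and DESeq2 likewise counted 9 lower and 0 higher. At an unadjusted p under 0.05, edgeR had 9 lower and 1 higher. Without control replicates 1 and 2, 5 of the 20 fell and the median was -0.10. Its smallest p values were those of Crmp1, which mediates semaphorin signals to the axonal cytoskeleton (-0.76 ± 0.10), the alpha-tubulin gene Tuba1a (-0.61 ± 0.10), Tubb2b and Dpysl3, a relative of Crmp1 (-0.59 ± 0.12).

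Gap43, a membrane protein of growth cones (ENSMUSG00000047261, chromosome 16, minus strand, 42248442 to 42340651), changed least. It was at 42.0, 23.8, 34.1, 35.2 and 33.6 CPM in p53_activated replicates 1 to 5, against 36.2, 46.2, 36.3, 48.6 and 42.7 CPM in control replicates 1 to 5. The groups overlapped, since p53_activated replicate 1 exceeded 2 controls. Its fold change of -0.32 ± 0.14 (log2) did not pass (edgeR adjusted p = 0.205), with a 95% interval of -0.62 to -0.01. Of 14 growth cone membrane and actin genes 3 fell and 0 rose, with a median of -0.21, against 6 lower and 0 higher at an unadjusted p under 0.05 and 4 lower and 0 higher by DESeq2. The 3 were the adhesion molecule gene Ncam1 (-0.99 ± 0.24) and the Gap43-like substrates of protein kinase C, Basp1 (-0.46 ± 0.12) and Marcks (-0.32 ± 0.08). Nrcam, another adhesion molecule gene, was at -0.52 ± 0.17 (adjusted p = 0.0762). Without control replicates 1 and 2, Ncam1 was at -0.52 ± 0.12 (adjusted p = 0.0261) and Marcks at -0.22 ± 0.08 (adjusted p = 0.158), and 2 of the 14 fell. Without p53_activated replicate 4, Ncam1 was at -1.04 ± 0.28 (adjusted p = 0.0677).

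The neurofilament genes Nefl and Nefm both fell. Nefl, which encodes the light subunit that neurofilaments need to assemble, was at 21.1, 18.6, 19.4, 27.6 and 22.1 CPM in p53_activated replicates 1 to 5. In control replicates 1 to 5 it was at 41.7, 37.0, 43.6, 55.0 and 47.8 CPM. No p53_activated embryo reached the control range, and the log2 fold change of -1.05 ± 0.14 (edgeR adjusted p = 0.00017) was the most negative of the members. Nefm, the medium subunit, was at 91.7, 93.6, 89.0, 134 and 123 CPM in p53_activated replicates 1 to 5, against 174, 148, 134, 194 and 184 CPM in control replicates 1 to 5. Its groups only just stood apart, at 133.7 CPM in p53_activated replicate 4 and 133.8 CPM in control replicate 3. Nefm changed by -0.65 ± 0.13 on the log2 scale (adjusted p = 0.00803).

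Nefl (ENSMUSG00000022055, plus strand, 68083863 to 68089095) and Nefm (ENSMUSG00000022054, minus strand, 68082590 to 68124846) overlap on chromosome 14. One annotated Nefm transcript shares 1108 exonic bases with Nefl, 32.8% of the merged exons of Nefl and 19.2% of those of Nefm. Since the strand setting of the counting is not stated, reads in that stretch cannot be assigned to one of them, and both counts are uncertain to that extent. Nefh, the heavy subunit, was too low to be tested. It had 0, 0, 3, 24 and 5 counts in p53_activated replicates 1 to 5 and 4, 11, 18, 15 and 5 counts in control replicates 1 to 5.

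Prph and Ina encode peripherin, typical of peripheral neurons, and alpha-internexin, an early neuronal filament protein. Prph (ENSMUSG00000023484, chromosome 15, plus strand, 99055174 to 99058978) was the lowest member, at 4.89, 4.99, 6.09, 6.88 and 7.01 CPM in p53_activated replicates 1 to 5 and 15.8, 10.9, 7.97, 8.10 and 7.94 CPM in control replicates 1 to 5. The groups did not overlap, and control replicates 1 and 2 were the highest. Its difference of -0.76 ± 0.22 (log2) was just short of the threshold (edgeR adjusted p = 0.0508), and it was -0.42 ± 0.21 (adjusted p = 0.299) without control replicates 1 and 2.

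Ina (ENSMUSG00000034336, chromosome 19, plus strand, 47014698 to 47025327) was at 10.9, 12.9, 9.23, 30.7 and 14.0 CPM in p53_activated replicates 1 to 5. In control replicates 1 to 5 it was at 31.6, 31.1, 22.6, 30.7 and 26.9 CPM. Apart from p53_activated replicate 4 every p53_activated embryo lay below every control. For Ina the difference was -0.86 ± 0.28 on the log2 scale (edgeR adjusted p = 0.0828), and without that library it was -1.28 ± 0.16 (adjusted p = 0.000128). Ina shares 14.1% of its exon bases with Nt5c2 on the other strand, so its count is uncertain to that extent.

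The authors' deposited table lists 9 of the 10 members lower at an adjusted p under 0.05, where 4.43% of the genes with an adjusted p in it were lower. In the authors' deposited table Prph was at -0.65 (adjusted p = 0.0185) and Ina at -0.73 (adjusted p = 0.0123), while Gap43 was at -0.29 (adjusted p = 0.199).

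Vim and Nes, whose products vimentin and nestin form the filaments of progenitors and mesenchyme, did not pass, at -0.07 ± 0.10 and 0.13 ± 0.14. Of 4 tested filament genes outside the members 1 rose and 0 fell. It was Synm, which encodes the nestin-like filament protein synemin, with 14.9 ± 1.32 CPM in p53_activated and 5.12 ± 1.10 CPM in control libraries (SD, n = 5 each; log2 fold change 1.54 ± 0.17, edgeR adjusted p = 3.50e-05). Des, the desmin gene of muscle, was at -0.34 ± 0.14 (adjusted p = 0.142). Of 14 widely expressed cytoskeleton genes Stmn1 fell, Tubb6 and the lamin gene Lmnb1 (0.39 ± 0.10) rose, and the median was 0.01. Without control replicates 1 and 2 that median was -0.11, near the -0.10 of the neuronal microtubule genes in the same fit. The 14 genes summed to 13902 to 16824 CPM in p53_activated and 16557 to 18045 CPM in control libraries. Lmnb1 was at 0.29 ± 0.11 (adjusted p = 0.141) without control replicates 1 and 2 and at 0.34 ± 0.10 (adjusted p = 0.0627) without p53_activated replicate 4. Actb, the beta-actin gene, was at -0.25 ± 0.09 (adjusted p = 0.122).

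**Figure D2:**
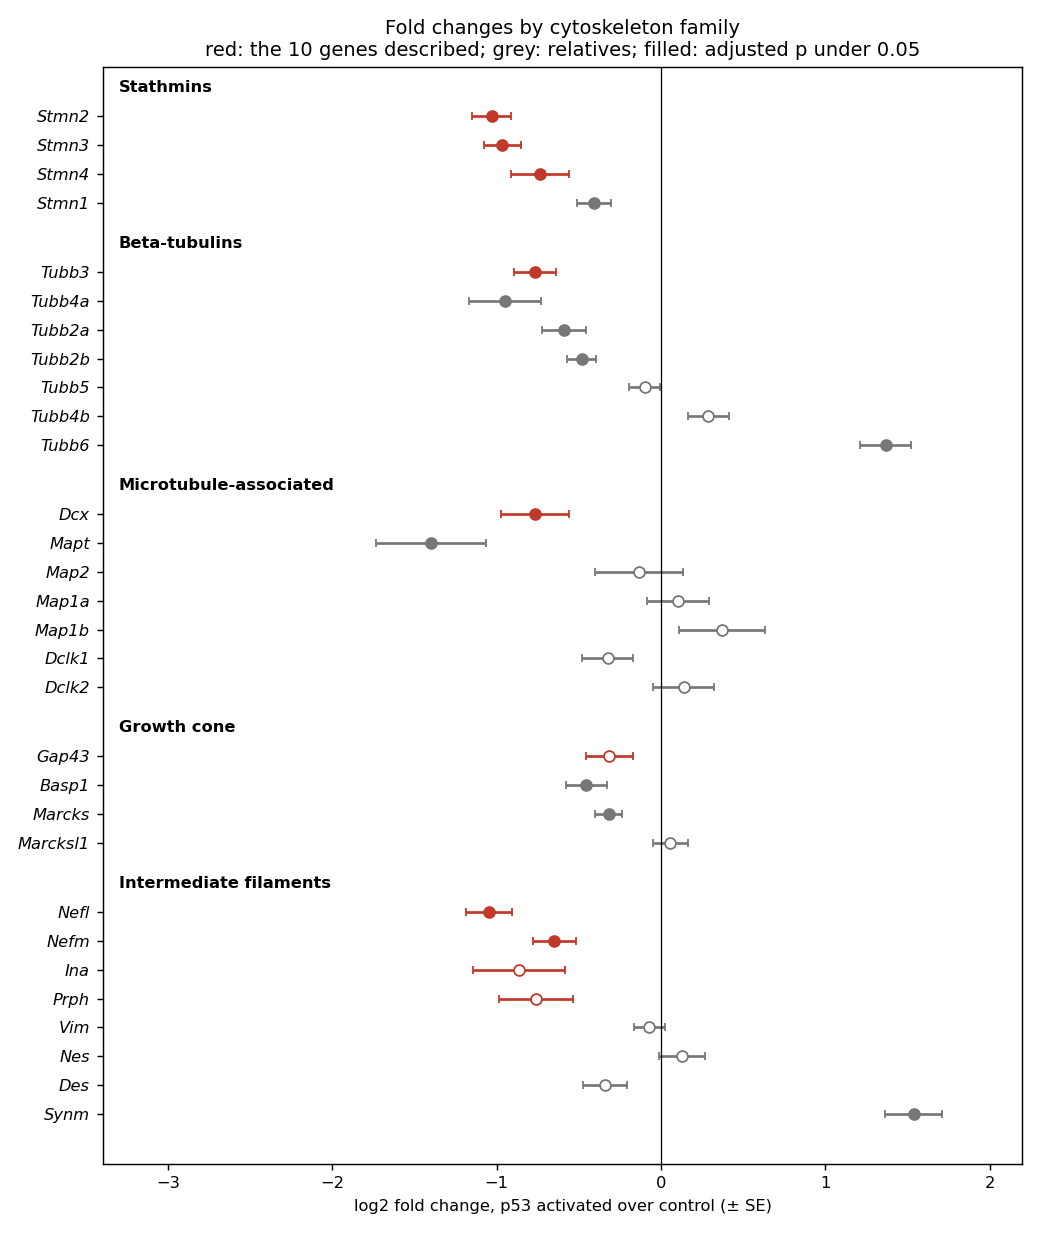
Log2 fold change of p53_activated over control (± SE, n = 5 each) for the 10 members in red and their relatives in grey, grouped by family, with filled points at an adjusted p under 0.05. All red points lie left of 0, whereas Tubb6 (1.37) and Synm (1.54) lie to the right.

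Whether the members moved by one factor was asked with count ratios to Tubb3 within each library, in which scaling between libraries cancels. None of the 9 ratios passed after adjustment. The ratio of Nefl to Tubb3 had the smallest p, with a log2 ratio of -2.84 ± 0.09 in p53_activated and -2.56 ± 0.09 in control embryos (SD, n = 5 each) and no overlap. The difference of -0.28 gave an exact permutation p of 0.00794 (adjusted 0.0714 over 9 ratios). Gap43 to Tubb3 was the only ratio with a difference above 0.11, at 0.44 (exact permutation p = 0.0317, adjusted 0.143). The other 7 differences lay between -0.27 for Stmn2 and 0.11 for Nefm, with adjusted p of 0.214 to 0.905. These tests do not show that the members moved alike, since 5 embryos per group leave ranges such as -3.91 to -2.70 for Ina to Tubb3 in p53_activated embryos and -3.44 to -2.87 in control embryos.

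**Figure D3:**
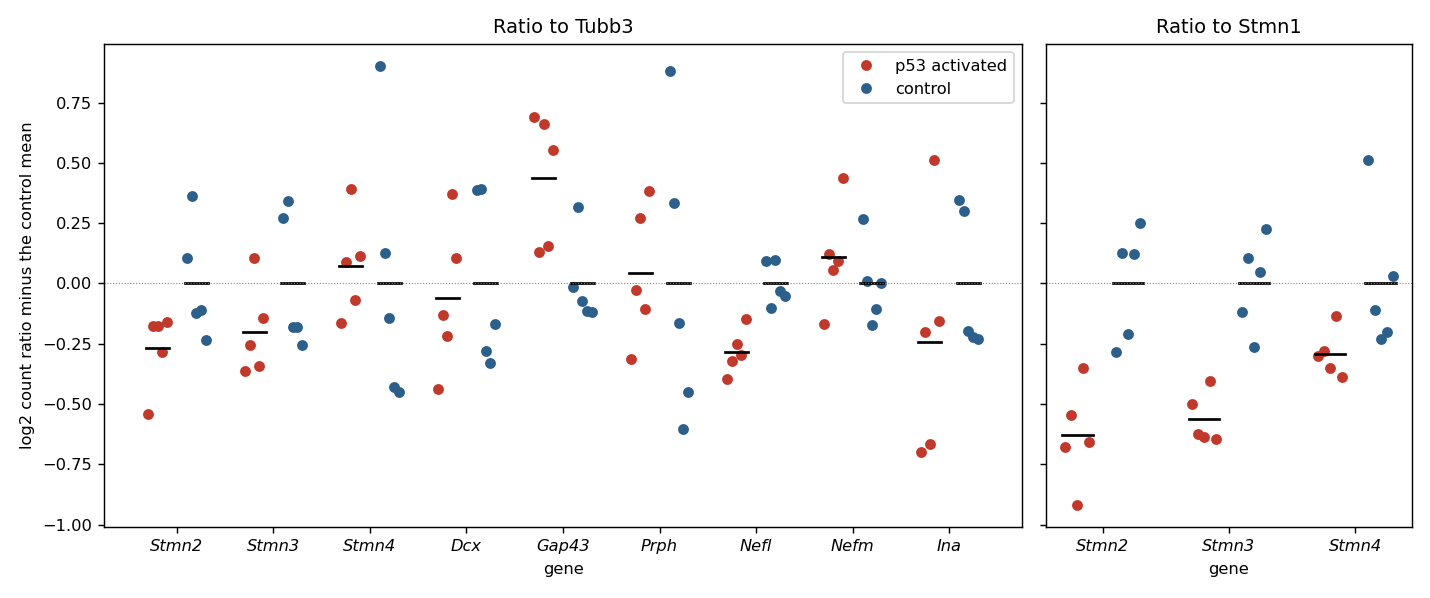
Log2 count ratio of each gene to Tubb3 (left panel) and of 3 stathmins to Stmn1 (right panel) in single embryos, minus the control mean, with p53_activated in red and control in blue and bars for the means. The groups stand apart for Nefl to Tubb3 and for Stmn2 and Stmn3 to Stmn1.

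Per kilobase of merged exons, Tubb3 led with 83.7 ± 14.3 CPM per kb in p53_activated and 142 ± 23.8 CPM per kb in control embryos (SD, n = 5 each). Stmn3 followed with 60.4 ± 7.44 and Stmn4 with 38.6 ± 4.71 CPM per kb in p53_activated embryos, against 118 ± 15.97 and 64.4 ± 21.3 CPM per kb in control embryos. In both groups the middle of the order held Gap43, Nefm and Stmn2, and the low end held Nefl, Ina, Prph and Dcx. Dcx was lowest, at 2.12 ± 0.81 CPM per kb in p53_activated and 3.63 ± 0.60 CPM per kb in control embryos, over 12647 merged exon bases. Merged exons include the long untranslated ends of all annotated isoforms, so a level per length depends on that choice, most for long genes such as Dcx and Stmn2. In p53_activated embryos the neighbours Gap43 and Nefm, Nefl and Ina, Ina and Prph, and Prph and Dcx overlapped. In control embryos the neighbours Tubb3 and Stmn3, Stmn3 and Stmn4, Nefm and Gap43, Ina and Prph, and Prph and Dcx overlapped, and all other neighbours stood apart.

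Promoter windows in RefSeq (GRCm38.p6) were matched for 5 members, namely Stmn3, Tubb3, Prph, Ina and Dcx. A window holds 250 bases before a transcript start and 50 after it. The bases upstream of any annotated exon are shown for each of the 5, to set the letters before their starts side by side: Stmn3 (chr2:181314501-181314750, minus strand), Prph (chr15:99054924-99055173, plus strand), Ina (chr19:47014431-47014680, plus strand), Tubb3 (chr8:123411303-123411423, plus strand) and Dcx (chrX:143933312-143933469, minus strand, the longer of 2 stretches). They run 5′ to 3′ along the gene, and capitals mark the motifs searched.
Stmn3: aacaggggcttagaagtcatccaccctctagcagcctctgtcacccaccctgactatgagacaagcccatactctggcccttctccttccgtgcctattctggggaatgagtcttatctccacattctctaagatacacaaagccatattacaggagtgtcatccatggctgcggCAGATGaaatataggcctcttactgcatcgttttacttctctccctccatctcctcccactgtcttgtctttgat
Prph: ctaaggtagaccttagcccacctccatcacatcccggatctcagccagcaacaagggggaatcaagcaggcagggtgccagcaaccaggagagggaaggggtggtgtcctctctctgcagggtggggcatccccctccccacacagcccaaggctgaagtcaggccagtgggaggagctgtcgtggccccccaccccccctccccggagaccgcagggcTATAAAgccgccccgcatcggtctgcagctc
Ina: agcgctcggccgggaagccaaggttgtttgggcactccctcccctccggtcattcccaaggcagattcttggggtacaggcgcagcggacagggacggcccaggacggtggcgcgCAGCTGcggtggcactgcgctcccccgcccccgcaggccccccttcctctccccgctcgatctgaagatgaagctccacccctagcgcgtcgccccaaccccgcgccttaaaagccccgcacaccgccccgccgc
Tubb3: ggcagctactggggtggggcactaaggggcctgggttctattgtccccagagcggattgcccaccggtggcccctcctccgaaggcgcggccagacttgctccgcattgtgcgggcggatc
Dcx: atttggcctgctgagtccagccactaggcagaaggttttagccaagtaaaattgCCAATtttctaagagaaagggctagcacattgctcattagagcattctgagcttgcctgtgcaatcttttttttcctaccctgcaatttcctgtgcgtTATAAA

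The stretches held 42.4% G and C for Dcx and 48.8% for Stmn3, against 65.2% for Prph, 67.8% for Tubb3 and 70.8% for Ina. Motifs were searched on both strands. The E-box CAGATG, bound by proneural factors, was found in the Stmn3 window, 75 bases before the start, and in 17.2% of 32817 RefSeq windows. The E-box CAGCTG was found in the Ina window, 135 bases before the start, and in 16.3% of all windows. The TATA box TATAAA was found in the window of Prph, 31 bases before the start, and in 13.6% of all windows. The letters TATAAA also occurred for Dcx, 98 or 193 bases before the start, depending on the window. The CCAAT box was found for Tubb3, outside the stretch shown, and Dcx, and in 37.4% of all windows. The left and right parts of the site of the repressor REST, TTCAGCACC and GGACAGCGC, were in none of the 5 members' windows and in 0.372% and 0.402% of all windows. A match of letters is a description and no binding site was measured.

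Single libraries stood out for many members at once. In p53_activated replicate 4 all 10 members lay above the p53_activated mean on the log2 scale, and 8 of the 10 had their highest p53_activated value there. Control replicate 3 was below the control mean for all 10, and p53_activated replicate 2 had 0 members above the p53_activated mean. Centred within each genotype, the log2 CPM of Dcx had a Pearson r of 0.92 with the mean of the other 9 members over 10 libraries, Ina 0.83, Stmn2 0.80, Nefm 0.79, Stmn3 0.76, Nefl 0.57, Tubb3 0.52, Prph 0.43, Stmn4 0.43 and Gap43 0.24. These are descriptions, since all points share their libraries and p53_activated replicate 4 is among them. Without p53_activated replicate 4, 8 members fell, with 2.73% of all genes called lower, and the median of the members was -0.95. With control replicates 1 and 2 left out, 6 members fell and their median was -0.72, with fewer calls over all genes than in the main fit. After removal of a trend on exon length from each library, an alternative added once values were known, 6 members fell and their median was -0.75. For these last 2 fits the share of all genes called lower is not given, so their counts of members stand without a background.

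**Figure D4:**
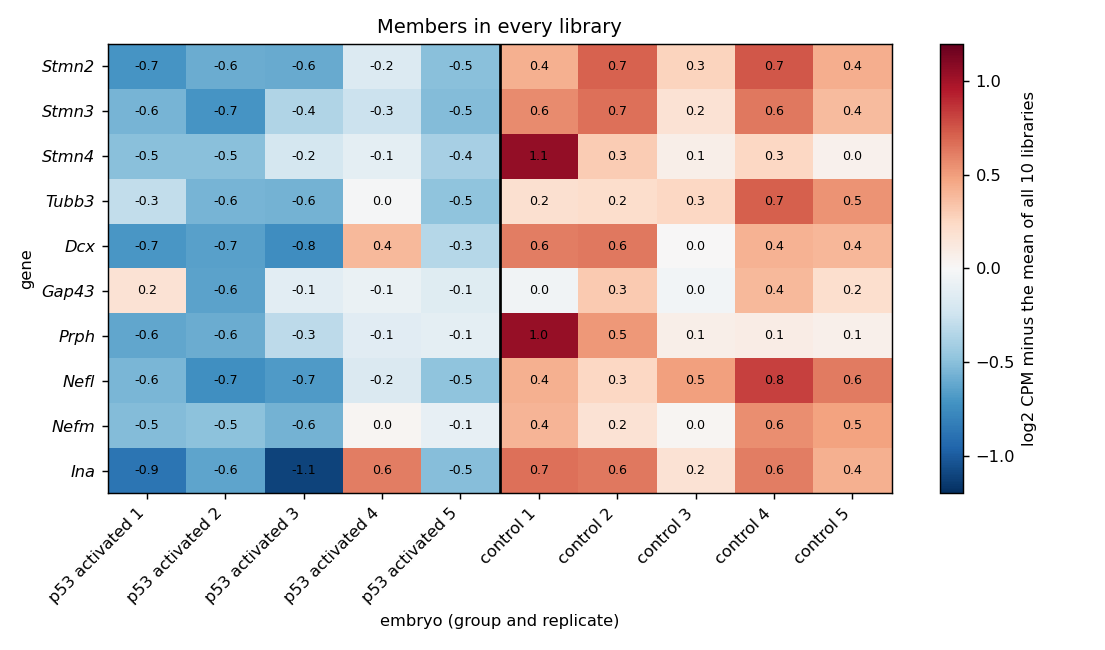
Log2 CPM of the 10 members in every library minus the mean of all 10 libraries, p53_activated replicates left of the line and control replicates right of it. The p53_activated replicate 4 is the palest of its group, with Ina at 0.61 above the mean, and Stmn4 is darkest in control replicate 1 at 1.06.

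Among 8713 other genes with a mean log2 CPM over 3, those most like the mean of the members within genotype over the 10 libraries were Mib2, a ubiquitin ligase gene (Pearson r 0.97), the amyloid precursor-like gene Aplp1 (0.95), the centriole gene C2cd3 (0.94), Podxl2 (0.94), the neuronal repressor gene Scrt2 (0.94) and the actin-binding protein gene Afap1 (0.94). Their log2 fold changes between the groups ran from -0.70 ± 0.21 for Aplp1 (edgeR adjusted p = 0.0528) to 0.60 ± 0.22 for C2cd3 (adjusted p = 0.113), and none of the 6 passed. The 6 were picked as the highest r of the 8713 over 10 points. The mean of the members deviated most in p53_activated replicate 4, at 0.41 above its group mean. This likeness is a description, and shared regulation was not tested.

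Neuronal genes outside the cytoskeleton were counted from 2 further lists. Of 13 neuronal RNA-binding and vesicle genes 8 fell and 0 rose (median -0.82). DESeq2 also counted 8 lower and 0 higher, and by edgeR 11 were lower and 0 higher at an unadjusted p under 0.05. The smallest p values were those of the granule gene Scg3 (-0.95 ± 0.13), Elavl4 (-0.88 ± 0.13) and Elavl2 (-0.70 ± 0.11), which encode neuronal RNA-binding proteins, and the G protein subunit gene Gng3 (-0.86 ± 0.13). Of 14 tested neurogenic regulators 4 fell and 1 rose, with a median of -0.47. Isl1 (-1.13 ± 0.21) and Pou4f1 (-0.87 ± 0.15), which direct sensory neurons, fell, as did the proneural gene Neurod1 (-0.85 ± 0.18). The gene that rose was Rest, whose product represses neuronal genes in other cells. Rest was at 27.6, 32.2, 27.95, 37.1 and 28.2 CPM in p53_activated replicates 1 to 5, against 16.3, 18.2, 15.6, 20.2 and 19.6 CPM in control replicates 1 to 5. Its groups did not overlap, with a log2 fold change of 0.77 ± 0.13 (edgeR adjusted p = 0.00158).

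**Figure D5:**
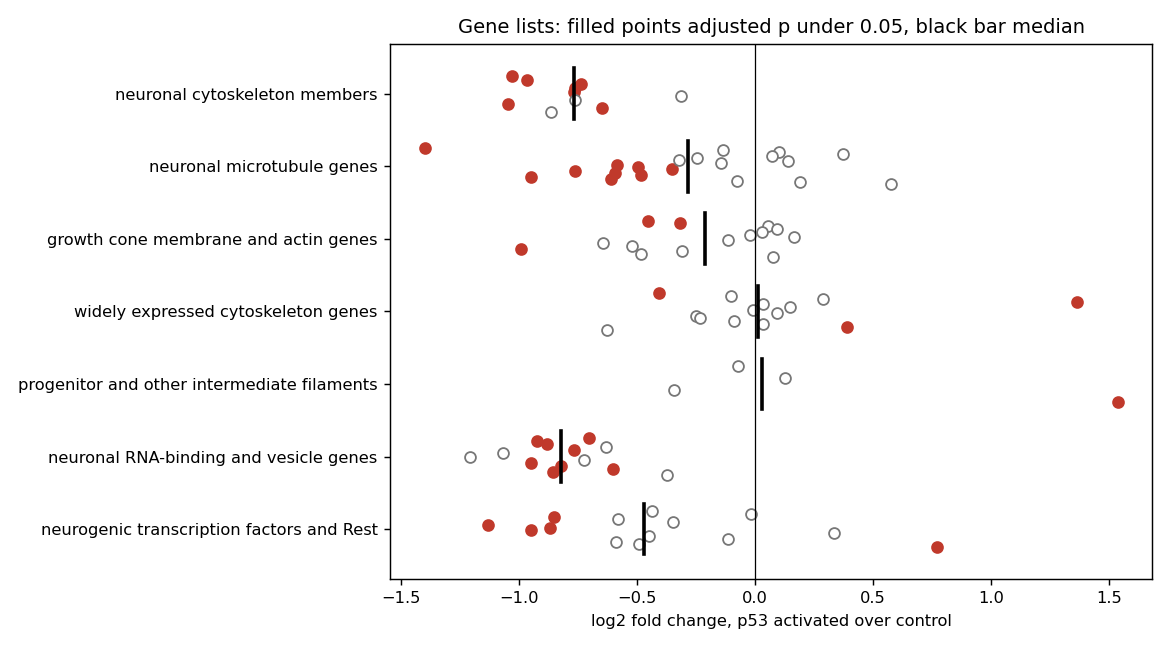
Log2 fold change of p53_activated over control for each tested gene of 7 lists, with filled points at an adjusted p under 0.05 and black bars at the medians. The members (median -0.77) and the neuronal RNA-binding and vesicle genes (-0.82) lie left of 0, and the widely expressed cytoskeleton genes centre on 0.01.

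Markers of the cell types that the sort could hold were read beside these results. Summed sensory neuron markers were 63.9 to 82.6 CPM in p53_activated and 96.4 to 132 CPM in control libraries, with 3 of 7 tested genes lower. Summed sympathetic and enteric markers were 55.2 to 72.7 CPM in p53_activated and 77.1 to 110 CPM in control libraries, with 2 of 7 lower. Of the 7, 6 had negative log2 fold changes. The exception was Hand2, a large part of the sum, at 25.9 ± 6.51 CPM in p53_activated and 20.5 ± 4.42 CPM in control libraries (log2 fold change 0.34 ± 0.20, edgeR adjusted p = 0.340). Central neuron markers overlapped, at 70.7 to 120 CPM in p53_activated and 98.6 to 191 CPM in control libraries, with 1 of 8 lower. It was Tlx3 (-0.79 ± 0.22, edgeR adjusted p = 0.0378), at -0.78 ± 0.23 (adjusted p = 0.0592) without p53_activated replicate 4. Of the 8, 5 had negative log2 fold changes. Lhx1 (0.08 ± 0.40), Lmx1b (0.47 ± 0.33) and Pax2 (0.89 ± 0.57) were positive and did not pass. Neural crest and arch mesenchyme markers, at 296 to 381 CPM in p53_activated and 336 to 529 CPM in control libraries, had 1 of 9 lower, and Sox10, a crest regulator, was present at 18.6 ± 4.31 CPM in p53_activated and 20.03 ± 3.64 CPM in control libraries (SD, n = 5 each). DESeq2 called 4 sensory, 3 sympathetic and enteric, 3 central neuron and 1 crest and arch marker lower, and 0 higher. At an unadjusted p under 0.05, edgeR had 4, 5, 4 and 1 lower in the same order, and 0 higher. After control replicates 1 and 2 were left out, edgeR called 0 central neuron and 0 crest and arch markers in either direction, and 3 sensory markers lower.

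Of cells outside the nervous system, 0 of 7 epithelial, 0 of 8 erythroid, 0 of 5 endothelial and 0 of 5 macrophage markers passed edgeR's test in either direction, and 1 of 8 muscle and heart markers, Tnni1, fell. At an unadjusted p under 0.05, edgeR had 2 epithelial markers lower and 0 erythroid, endothelial or macrophage markers in either direction, and DESeq2 called 0 in all 4 lists. Of the muscle and heart markers edgeR had 4 lower and 0 higher at an unadjusted p under 0.05, and DESeq2 called 3 lower and 0 higher. The median log2 fold changes of the epithelial and of the muscle and heart markers were -0.80 and -0.72, close in size to the members' -0.77. Epithelial sums were 45.7 to 129 CPM in p53_activated and 81.2 to 190 CPM in control libraries, and muscle and heart sums 34.6 to 75.3 CPM in p53_activated and 59.3 to 119 CPM in control libraries. Erythroid sums were 493 to 5940 CPM in p53_activated and 819 to 4431 CPM in control libraries, with the highest in p53_activated replicate 4. Endothelial sums were 22.9 to 37.8 CPM in p53_activated and 15.5 to 50.9 CPM in control libraries, and macrophage sums 17.9 to 28.2 CPM in p53_activated and 9.39 to 36.1 CPM in control libraries. No marker was at 0 counts in all libraries. The part of these cells in the levels of the members was not tested.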

How the data were processed

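RNA-seq of 10 libraries was analysed, 1 per embryo. The deposited table gives unnormalised read counts for Ensembl identifiers, and its columns carry the numbers found in the sample descriptions. GRCm38, DESeq2 1.14.1, HTSeq 0.6.1, HISAT2 2.0.4 and SAMtools 1.3.1 are named, without roles, per the submitters' processing notes. Strand setting and annotation release: not given in the sources used here. The authors' deposited comparison holds, per the file headers, a mean normalized count (signal), a log2 fold change with its error, a Wald score and p-values. Of 49671 listed genes, 14528 passed filterByExpr (minimum count 10, minimum total 15). They were TMM-scaled and tested with the quasi-likelihood test of edgeR 4.0.16 (R 4.3.3, robust dispersions, no covariate), with Benjamini-Hochberg adjustment over all tested genes and a threshold of 0.05. Each SE equals the absolute log2 fold change over the root of its F statistic. CPM, counts scaled to the TMM-adjusted library size, had 2 counts added before logs. The fit was tested on simulated data. Each library is from a separate embryo, so p-values set the difference between groups against the spread between embryos. Litters, which the labels do not name, were not in the model. Ratios between genes within a library used counts plus 0.5 and an exact permutation test. Depth was 12368058 to 28379562 counts. Positions and merged exon lengths are from GENCODE M21 (GRCm38), which held 99.3% of the identifiers.

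The members, the gene lists and the naming rule were chosen with earlier results of these data known. The rule names all 10 members, the 4 genes with the smallest p in each list of relatives, Stmn1, Nefh, Vim, Nes, Mapt, Map2, the genes of the label check and the 6 genes most like the members. A gene that the rule names is not reported here. Other beta-tubulin genes and microtubule-associated genes were named after their values were seen, as relatives of the members. Alternatives covered scaling, filters, dispersions, DESeq2 1.42.0, limma-voom of limma 3.58.1, the replicate number as a block, the ratio of embryonic globins as a covariate and the removal of libraries. Removal of a trend on exon length (lowess span 0.3) and the listed genes without 3 libraries were added after the data were seen.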

Additional observations from a re-analysis of the deposited data

Results flagged for a closer look

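Of 40 sets of 5 embryos examined, 4 held a library whose gap to its nearest neighbour exceeded 0.71 of the range of its group. Chance alone gives about 1 in 20. Dcx was at 44.6 CPM and Ina at 30.7 CPM in p53_activated replicate 4, far above the other p53_activated embryos. Stmn4 was at 195 CPM in control replicate 1, far above the other controls. Elavl3 was at 178 CPM in control replicate 1, far below the other controls. The first pair shares a library that was also the deepest, and the second pair shares the control with the highest globin ratio. The part of these features in the values was not tested.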

How the results depend on the processing

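All 230 combinations of a member and an alternative gave a negative log2 fold change. Between 5 and 9 members were called lower over the 23 alternatives, and Stmn2, Stmn3, Tubb3, Nefl and Nefm were called in each. Shares of all genes called lower are given only for the main fit, DESeq2 and the fit without p53_activated replicate 4. The other counts of members, including that with the replicate number as a block, stand without a background. Over all genes, 1050 calls became 1623 with DESeq2 (663 lower and 960 higher), 656 without control replicates 1 and 2, and 636 to 1025 when 1 library was left out, with 652 without p53_activated replicate 5 and 692 without control replicate 4. With upper quartile scaling 538 genes were called lower and 576 higher, against 398 and 652. The cause was not tested. Numbers shared by a p53_activated and a control embryo showed no clear pairing. Correlations were -0.05 to 0.11 for shared numbers and -0.13 to 0.13 for different ones. Shared litters cannot be read from these values. With the replicate number as a block 804 genes and 8 members were called, and Ina then passed (edgeR adjusted p = 0.0151). Leaving out 1 library turned the sign of 3 ratios to Tubb3 that were not called: Dcx (-0.17 to 0.036), Stmn4 (-0.041 to 0.30) and Prph (-0.11 to 0.26). Treated as 5 pairs the ratios could not pass, since the smallest exact p is 0.0625. Depth limits Prph most, with 71 to 209 counts in p53_activated and 109 to 278 counts in control libraries.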
